A study of Mus musculus with 2 samples.

Results

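Gene-body boundaries are domain boundaries of the Hi-C map that lie inside a protein-coding gene and away from every protein-coding promoter. A boundary was included when the midpoint of its 5 kb bin lay on an autosome, between the annotated start and end of a protein-coding gene (GENCODE M21, GRCm38), and more than 10 kb from every protein-coding transcription start site (TSS). The TSS of a gene is its annotated 5' end, and starts of further transcripts inside the gene were not counted. The rule selected 1895 of the 7169 autosomal boundaries (26.4%, Wilson 95% interval 25.4 to 27.5), from a deposited list of 7576 boundaries that also covers the X chromosome. Of the other autosomal boundaries, 1906 lay within 10 kb of a protein-coding TSS and 3368 lay farther from one and outside protein-coding genes. The rule used positions alone, and no score.

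The map came from in situ Hi-C on mature olfactory sensory neurons (OSNs) sorted by fluorescence from the olfactory epithelium of adult P2-GFP mice of the strain 129P2/OlaHsd, of both sexes. The sorted cells express Olfr17 (P2), an odorant receptor gene, and the labels list no further modification and no treatment. The only group, 2 biological replicates of 23000 and 20000 cells, was crosslinked with 1% formaldehyde, cut with DpnII and pooled by the authors into 1 contact matrix, on which boundaries were called. There is therefore 1 list, the spread between replicates cannot be measured, its depth is unknown here, and a boundary list has no marker genes against which the sorted cell type could be checked.

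At a domain boundary few Hi-C contacts pass from one side to the other. Many boundaries in mammals form where cohesin, a ring that extrudes DNA loops, is stopped by CTCF, a zinc finger protein that stops it mainly when its asymmetric motif points towards the arriving ring; a boundary between domains thus often has motifs that point outward, into the domains on either side. Transcription also goes along with boundaries: active promoters are frequent boundary sites, and RNA polymerase moving through a gene can push cohesin towards the gene's 3' end. A mature OSN expresses a single receptor gene, chosen from a large family.

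The sequences below show the CTCF-like motif nearest to the midpoint of the highest-scoring gene-body boundaries that have such a motif within 10 kb. A boundary can have further matches, in repeats or outside them. The sequences were chosen by score, and are shown because some lie in repeats and others outside them. Each is 42 bases of the GRCm38 reference (RefSeq p6, the C57BL/6J strain and not the 129P2/OlaHsd genome), written 5' to 3' on the motif's strand, with the 12 bases that match the core consensus in capitals. The core consensus stands for the forms CCANNAGAGGGC, CCANNAGATGGC, CCANNAGGGGGC and CCANNAGGTGGC, searched on both strands with overlaps allowed. A match is a sequence match and not measured binding. A stretch that overlaps an annotated UTR was not printed, and the boundaries in Smn1 (2.47) and Far2 (2.43), whose only core match lies in such a stretch, were passed over for this reason. None of the printed stretches overlaps an annotated exon.
Trpm8: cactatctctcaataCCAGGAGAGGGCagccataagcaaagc
Sec23ip: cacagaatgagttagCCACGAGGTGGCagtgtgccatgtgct
Odr4: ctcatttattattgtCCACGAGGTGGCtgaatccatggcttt
Zscan20: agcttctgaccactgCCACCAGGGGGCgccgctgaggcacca
Dlg2: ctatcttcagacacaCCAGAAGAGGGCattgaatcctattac
Lrrc7: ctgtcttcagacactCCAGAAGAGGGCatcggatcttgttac
Spag17: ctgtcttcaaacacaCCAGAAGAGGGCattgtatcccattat
Pde4d: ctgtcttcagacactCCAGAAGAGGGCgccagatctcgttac
Ttc5: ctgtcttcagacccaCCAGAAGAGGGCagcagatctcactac
Xpnpep1: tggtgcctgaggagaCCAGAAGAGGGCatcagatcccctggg

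The first 4 of these matches lie outside repeats: at chr1:88301794-88301835 (minus strand) in Trpm8, chr7:128779465-128779506 (plus) in Sec23ip, chr1:150365436-150365477 (minus) in Odr4 and chr4:128579335-128579376 (plus) beyond the 3' end of Zscan20, outside the gene. The other 6 lie in repeats, which the reference marks by soft masking, and all 6 carry the same 12 bases, CCAGAAGAGGGC. They lie at chr7:92088146-92088187 (plus) in Dlg2, chr3:158110127-158110168 (plus) in Lrrc7, chr3:100114387-100114428 (plus) in Spag17, chr13:109207351-109207392 (minus) in Pde4d, chr14:50771570-50771611 (minus) in Ttc5 and chr19:52977172-52977213 (minus) in Xpnpep1. In this order from Trpm8 to Xpnpep1 the boundaries scored 4.38, 2.94, 2.68, 2.35, 3.30, 2.63, 2.42, 2.39, 2.37 and 2.40. The distances of the matches from the boundary midpoints ranged from 0.308 kb in Xpnpep1 to 9.33 kb in Dlg2.

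Inside genes and away from promoters, boundaries were less frequent than at promoters. Of 160195 eligible gene-body bins, 1.18% were called a boundary (1.13 to 1.24), beside 1.5% of all 479191 autosomal bins. The rate was 2.78% of 68673 bins within 10 kb of a TSS (2.66 to 2.90) and 1.35% of 250323 bins outside genes (1.30 to 1.39). Intervals here and below are Wilson 95% intervals; they cover counting error only, since neighbouring bins and boundaries are not independent of each other. Over the 19 autosomes the gene-body rate was 1.20 ± 0.141% (SD), lower than the promoter rate on 19 of 19 autosomes and lower than the rate outside genes on 14 of 19. Gene-body boundaries numbered 66 to 149 per autosome and made up 26.7 ± 3.35% of an autosome's boundaries (SD).

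The boundary score, a number without a stated unit that the authors give to each boundary and that is compared only within this list, was intermediate. Gene-body boundaries had a median score of 0.573 (quartiles 0.330 and 0.930, range 0.20 to 4.38), promoter boundaries 0.704 and boundaries outside genes 0.462. The authors' class Strong, which in this list begins at a score of 0.5, held 1061 gene-body boundaries (56.0%, 53.7 to 58.2), beside 54.6% of all autosomal boundaries, 66.5% at promoters and 47.2% outside genes. The median score was lower in gene bodies than at promoters on 16 of 19 autosomes and higher than outside genes on 18 of 19. On the limit of 10 kb itself, the boundaries just inside were in Aldh1a3 (10.0 kb, score 0.675), Gm35060 (10.1 kb, 1.32) and Sall4 (10.1 kb, 0.289). Those just under it were in Dpys (9.97 kb, 0.905), Pomt2 (9.96 kb, 0.427) and Ssh2 (9.91 kb, 0.783).

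**Figure D1:**
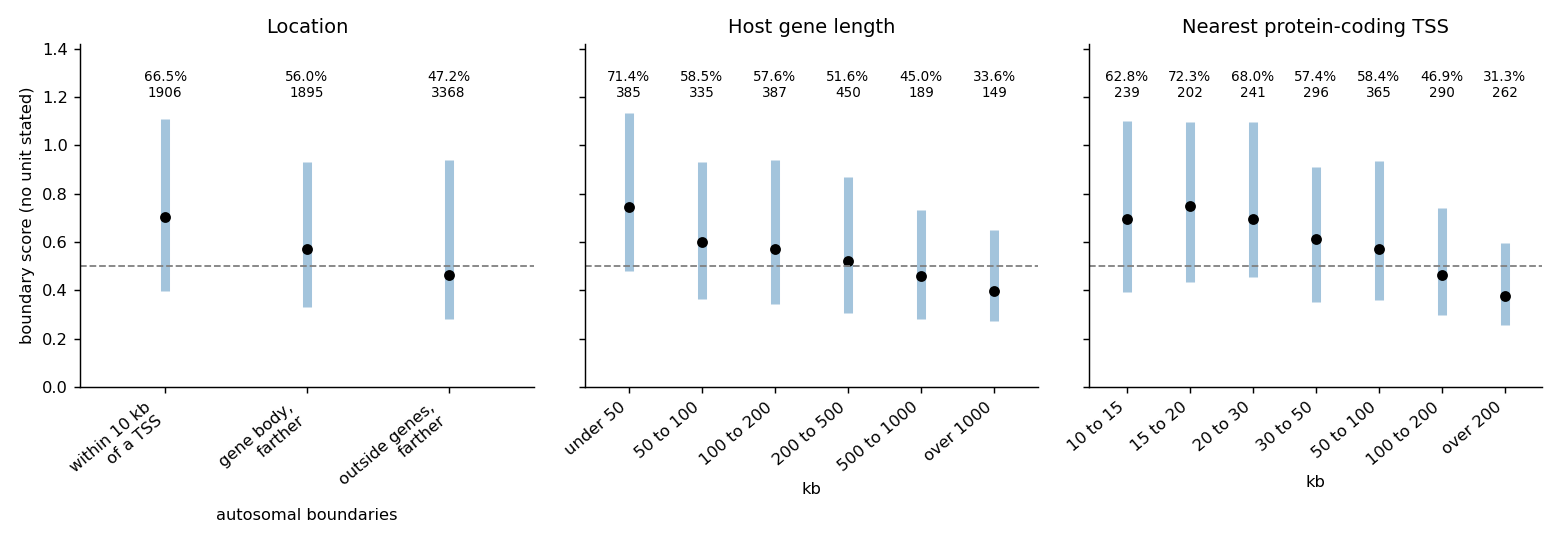
Boundary scores (vertical axis, no unit stated) by location, by length of the host gene in kb and by distance to the nearest protein-coding TSS in kb; points are medians, bars run from the lower to the upper quartile, the dashed line is the score of 0.5 at which the class Strong begins, and the numbers over the bars give the Strong share and the number of boundaries. The median lies between promoters and the space outside genes, and goes from 0.744 in genes under 50 kb to 0.398 in genes over 1000 kb.

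The 10 highest-scoring gene-body boundaries were all Strong, and all 10 midpoints lay in introns. Trpm8, the gene of the cold-sensing cation channel, held the highest of all, with a score of 4.38 at chr1:88305001-88310000 in intron 3 of 28, 29.8 kb from the TSS of the GENCODE model. RefSeq gives Trpm8 a shorter model (82.1 kb, against 112 kb), whose 5' end lies 0.766 kb from this midpoint, so by that annotation the highest-scoring boundary is at a promoter. It is the only 1 of the 10 for which this holds; of all 1895, 38 (2.01%) lay within 10 kb of the 5' end of a RefSeq protein-coding gene. Dlg2, which encodes a scaffold protein of the synapse, held the next, with 3.30 at chr7:92095001-92100000 in intron 17 of 27. That boundary lay 1621 kb from the Dlg2 TSS and 464 kb from the nearest 5' end of a protein-coding gene. Sec23ip, whose product acts at exit sites of the endoplasmic reticulum, held a boundary of 2.94 in its intron 18, the last, 2.34 kb before the 3' end. Adgre1, the gene of the macrophage marker F4/80, held one of 2.83 in intron 2. Cacna2d2, a calcium channel subunit gene, held one of 2.75 in intron 23 of 37, 6.84 kb before its 3' end.

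Odr4 had a score of 2.68 in intron 12 of 13, Vmn1r4, a vomeronasal receptor gene, 2.65 in intron 4, and Lrrc7, which encodes a postsynaptic density protein, 2.63 in intron 25 of 26. Psma2, a proteasome subunit gene, had a score of 3.06 and Pate2 one of 2.76, but both boundaries lie only inside the longer GENCODE models. The Psma2 model spans 61.0 kb in GENCODE and 12.4 kb in RefSeq, the Pate2 model 120 kb and 61.1 kb, and neither boundary lies in a RefSeq protein-coding gene. Of all 1895 gene-body boundaries, 1799 (94.9%) also lay inside a RefSeq protein-coding gene of the same build. Of the 10 boundaries, 5 had a core match within 10 kb: those in Trpm8, Dlg2, Sec23ip, Odr4 and Lrrc7.

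Gene-body boundaries were concentrated towards the 3' ends of their hosts, the longest protein-coding gene where several overlap. Within 10 kb of the host's annotated 3' end, 443 of 18482 eligible bins were boundaries (2.40%, 2.19 to 2.63), against 1452 of 141713 bins farther inside (1.02%). The ratio of the rates was 2.34, and over autosomes it was 2.33 ± 0.556 (SD), above 1 on 19 of 19. It ranged from 1.03 on chromosome 15 to 3.33 on chromosome 18. Since the positions of all the boundaries come from 1 map, agreement between chromosomes says nothing of the spread between animals.

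Along the gene the rate stayed near 1% over most of the body and was higher at its end. With each gene cut into 10 equal parts, it was 1.02% in the first, 0.827% in the next, and 0.930% to 1.13% from the third to the eighth. In the ninth it was 1.52%, and in the last it was 2.23% (384 boundaries, 2.02 to 2.47). By distance the rate was 2.58% in the last 5 kb (241 boundaries, 2.28 to 2.92), 2.21% from 5 to 10 kb, 1.66% from 10 to 20 kb, 1.18% from 20 to 50 kb and 0.748% from 50 to 100 kb (0.653 to 0.856). Beyond 100 kb it was between 0.860% and 0.968%. A typical gene-body boundary lay 64.9% of the way along its host and 35.0 kb from the 3' end (medians), where the median eligible bin lay at 55.1% and 73.1 kb.

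The rate did not stop at the annotated end. Downstream of it, outside protein-coding genes and still over 10 kb from every TSS, 2.64% of bins were boundaries in the first 5 kb (207 boundaries, 2.31 to 3.02). At 40 to 45 kb the rate was 2.32% downstream and 0.758% inside the gene, and at 45 to 50 kb it was 1.82% and 0.970%. Between both sides of the 3' end the intervals overlapped in the nearest 15 kb and did not overlap in any 5 kb step from 15 to 50 kb, where the downstream side was higher.

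**Figure D2:**
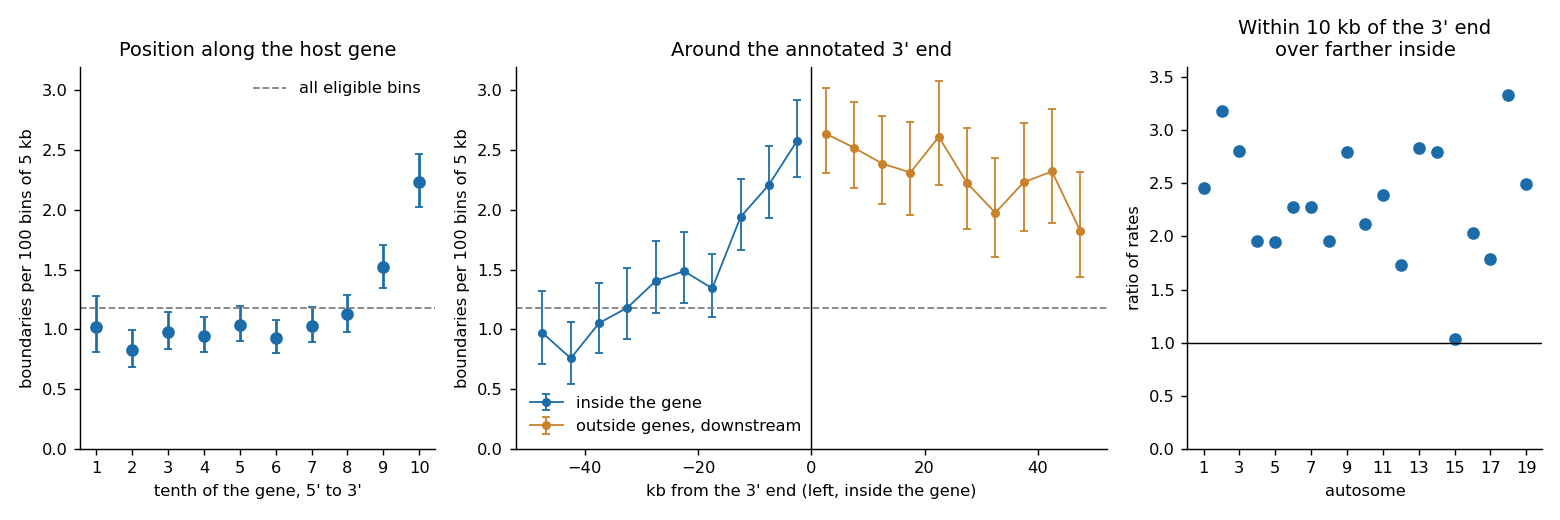
Boundaries per 100 eligible bins of 5 kb by position along the host gene in 10 equal parts (left panel), by distance in kb from the annotated 3' end inside genes and downstream of them (middle panel), and the ratio of the rate within 10 kb of the 3' end to that farther inside for each of 19 autosomes (right panel). Points are rates with Wilson 95% intervals and the dashed line is the rate of all eligible bins, 1.18; the rate reaches 2.23 in the last of these parts, and the autosomal ratios lie between 1.03 and 3.33.

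The rate was also higher near the 3' end within classes of other features. In bins 10 to 15 kb from the nearest TSS the rate was 2.43% near the 3' end and 1.38% farther inside; at 30 to 50 kb it was 2.48% and 0.977%, and at 100 to 200 kb it was 3.37% (37 boundaries) and 0.975%. Over 200 kb from any TSS the rates were 1.14% and 0.864%, and the first rested on 7 boundaries. Near the 3' end the rate was higher in each of 5 classes of GC content, from 1.75% against 0.914% in bins under 38% GC to 2.78% against 1.55% in bins over 50%. With a CTCF core match within 10 kb it was 2.95% near the 3' end and 1.34% farther inside, and without one 1.56% and 0.767%. Where the next gene downstream lay on the opposite strand, so that both genes end towards each other, the rate in the last 10 kb was 2.53% (2.22 to 2.89), and where it lay on the same strand it was 2.34% (2.04 to 2.68), with overlapping intervals.

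The boundaries in the last 5 kb of their hosts reached high scores, with a median of 0.684. The highest, in Sec23ip, is described above. Ano5, a member of the anoctamin membrane protein family, held one of 2.60, 1.21 kb before its 3' end, and Smn1, a gene of spliceosome assembly, held one of 2.47 at 0.189 kb. Ttc5 had a score of 2.37 at 2.09 kb and Zscan20, a zinc finger gene, 2.35 at 3.96 kb. The midpoints in Ano5 and Smn1 fell in exons, and those in Sec23ip, Ttc5 and Zscan20 in introns. The next boundaries of this kind with a core match, also given here for their motifs, lay in Igfbp5, which encodes a binding protein of insulin-like growth factors (score 2.15), and in Tyw3, a tRNA-modifying enzyme gene (2.14). Their matches lie at chr1:72863290-72863331 (minus) in Igfbp5 and chr3:154572497-154572538 (minus) beyond the 3' end of Tyw3, both outside repeats.
Igfbp5: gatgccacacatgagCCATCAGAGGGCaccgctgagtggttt
Tyw3: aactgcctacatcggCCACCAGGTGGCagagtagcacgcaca

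Boundaries were sparser and weaker in long genes than in short ones. The rate was 1.84% in genes under 50 kb (385 boundaries, 1.66 to 2.03), 1.24% at 50 to 100 kb, 1.14% at 100 to 200 kb, 1.07% at 200 to 500 kb, 0.896% at 500 to 1000 kb and 0.990% in genes over 1000 kb (149 boundaries, 0.844 to 1.16). The Strong share went from 71.4% (66.7 to 75.7) through 58.5, 57.6, 51.6 and 45.0% to 33.6% in the same order. The rate in genes of at least 500 kb divided by that in genes under 100 kb was 0.624, and per autosome 0.643 ± 0.143 (SD), below 1 on 19 of 19. The median score was lower in the long genes on 18 of 19 autosomes, at 0.446 ± 0.119 against 0.695 ± 0.0851 (SD).

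The 3' end takes up more of a short gene. Over 20 kb from the 3' end the rates, in the same order of length, were 1.49% (62 boundaries, 1.16 to 1.90), 1.00, 0.819, 0.974, 0.894 and 0.951%, so that above 50 kb of length no order was left, while the Strong share still went from 82.3% to 31.9%. Base composition also moved with length: the median GC content of eligible bins was 44.4% in genes under 50 kb and 39.1% in genes over 1000 kb, and the share of bins with a core match within 10 kb was 66.1% and 29.5%. The part of either in the scores was not tested. With a core match, 49.2% of the 59 boundaries in genes over 1000 kb were Strong, and without one 23.3% of 90.

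Scores also went down with distance from promoters. The Strong share was 62.8% at 10 to 15 kb from the nearest protein-coding TSS, 72.3% at 15 to 20 kb, 68.0% at 20 to 30 kb, 57.4% and 58.4% up to 100 kb, 46.9% at 100 to 200 kb and 31.3% of 262 boundaries beyond 200 kb. A few boundaries far from the 5' end of any protein-coding gene nevertheless scored high. After Dlg2, the highest beyond 200 kb were in Pde4d, a cAMP phosphodiesterase gene (2.39, 763 kb from the nearest TSS), Plcb1, a phospholipase C gene (2.29, 327 kb), Nyap2 (1.88, 236 kb), Nav3 (1.82, 569 kb) and Chl1, a neural cell adhesion gene (1.77, 202 kb). These 5 were named after their values were seen, and so was the following match in Plcb1, outside repeats at chr2:135330384-135330425 (minus), shown because that boundary has 2 matches to a longer, stricter form of the CTCF consensus.
Plcb1: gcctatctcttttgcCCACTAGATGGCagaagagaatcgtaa

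Single very long genes were divided by several boundaries. Of 11165 genes with an eligible bin, 1680 (15.05%) held a gene-body boundary and 143 held several. The share of genes with a boundary inside was 5.93% under 50 kb, 14.2% at 50 to 100 kb, 27.9% at 100 to 200 kb, 54.9% at 200 to 500 kb, 77.5% at 500 to 1000 kb and 98.2% of 55 genes over 1000 kb. The mean number of eligible bins per gene was 3.22 under 50 kb and 274 over 1000 kb. Per bin, the genes over 1000 kb had fewer boundaries than all eligible genes, 0.990% beside 1.18%. The annotation gave the most to Gm20388 (13 boundaries in 4435 kb) and to Fgfr2, the fibroblast growth factor receptor 2 gene (7 in 2961 kb), but these are models that run over many other genes: Fgfr2 spans 104 kb in RefSeq, where no length for Gm20388 was found. Next came Lsamp and Cntnap2 with 6 each, Camta1, Pde4d and Dlg2 with 5, and 5 genes with 4, among them Epha6, Prkg1, Csmd1 and Lrp1b. Camta1 spans 802 kb in RefSeq and 945 kb in GENCODE, and its boundary at chr4:150970001-150975000 lies in no RefSeq protein-coding gene.

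Cntnap2, which encodes a neuronal adhesion protein, held its boundaries 218, 768, 1203, 1508, 1933 and 2233 kb from the TSS of a gene of 2245 kb. Their scores were 0.239, 0.271, 0.223, 0.355, 0.755 and 0.208, so that only the fifth was Strong. In Lsamp, a neuronal adhesion gene of 2197 kb, the boundaries lay at 478, 968, 1263, 1693, 1863 and 2183 kb and scored 0.396, 0.275, 0.799, 0.242, 0.367 and 1.13. Here the third and the last were Strong. Dlg2 held boundaries at 10.8, 771, 981, 1621 and 1966 kb, with scores of 1.26, 0.468, 0.337, 3.30 and 0.260, so that 1 boundary stood far above the other 4.

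Pde4d had the highest median score of these genes: its boundaries at 383, 763, 1108, 1303 and 1463 kb scored 0.410, 2.39, 1.11, 0.843 and 0.461. Lrp1b, a lipoprotein receptor gene of 2058 kb, held 4 that were all Weak, the highest at 0.410. Within genes, 206 pairs of neighbouring boundaries enclosed stretches of 110 to 1470 kb (median 260 kb) in 142 genes, and 350 gene-body boundaries (18.5%) had a neighbour inside the same gene. The longest eligible genes without a boundary inside were Csmd3 (1211 kb), Sntg1 (938 kb), Cdh18 (925 kb), Npas3 (823 kb) and Adgrl3 (805 kb), and of these Adgrl3 had a boundary within 10 kb of its own TSS.

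**Figure D3:**
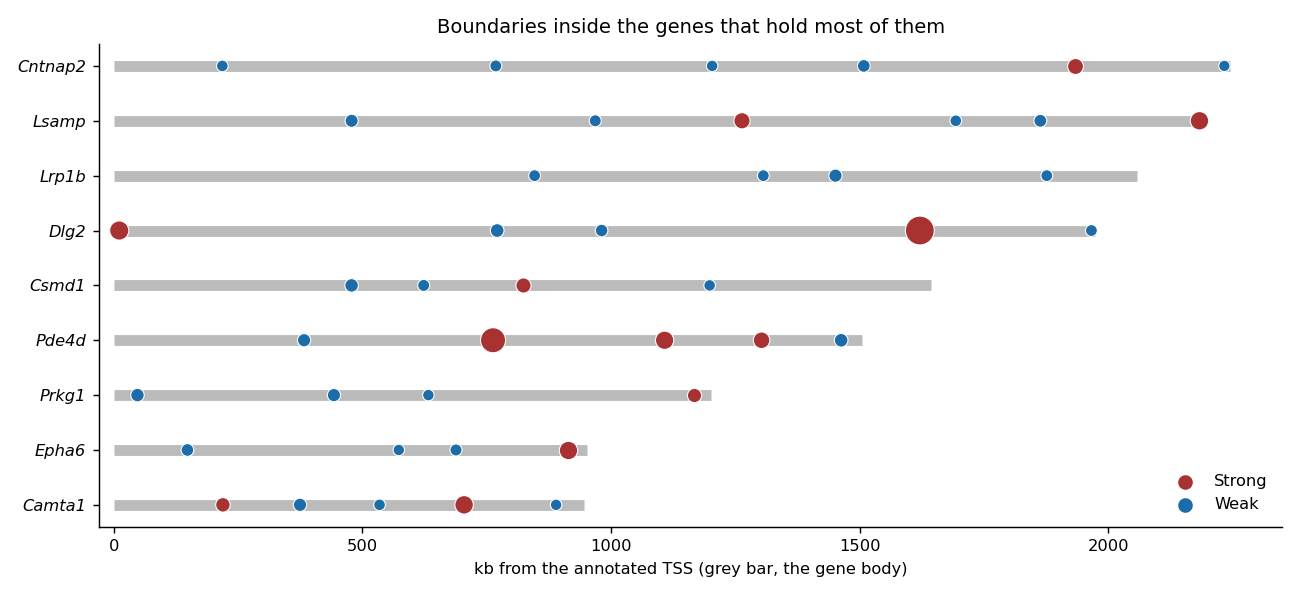
Gene-body boundaries in 9 of the genes with most of them, the models Gm20388 and Fgfr2 not shown; the horizontal axis is the distance in kb from the annotated TSS, the grey bar is the gene body, red points are Strong and blue points Weak, and the area of a point grows with the score. The 5 boundaries of Dlg2 range from 0.260 to 3.30, and those of Lrp1b are all Weak.

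Most gene-body boundaries lay in introns, as most of the eligible sequence does. The midpoint fell in an intron of the principal transcript for 1664 boundaries (1.12% of such bins) and in an exon for 154 (2.20%, 1.88 to 2.57). Bins that hold any exon sequence were boundaries in 1.64% (1069 boundaries) and bins without in 0.870% (826). Over 20 kb from the 3' end these rates were 1.22% and 0.827%. The first intron had the lowest rate of the introns of genes with several, 0.761% (224 boundaries, 0.668 to 0.866), against 1.18% in middle introns and 1.63% in the last. Over 20 kb from the 3' end the first intron had 0.728% (0.635 to 0.834), middle introns 0.988% (0.925 to 1.06) and the last intron 1.04% (44 boundaries, 0.778 to 1.40). GC content of the bins and distance from promoters differ between these classes, and their part in the rates was not tested.

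CTCF-like motifs lay near the gene-body boundaries more often than near other positions inside genes. A core match lay within 10 kb of 1184 gene-body boundaries (62.5%, 60.3 to 64.6) and of 46.8% of eligible bins. The shares were 72.7% and 60.6% at promoters, and 49.3% and 33.5% outside genes. The rate of boundaries was 1.58% in eligible bins with a match and 0.835% in those without, and over autosomes the ratio was 1.91 ± 0.414 (SD), above 1 on 19 of 19. It was higher with more matches: 1.27% with 1 match, 1.88% with 2, 2.01% with 3, 2.13% with 4 and 3.08% with at least 5. A match to the longer consensus lay near 320 gene-body boundaries (16.9%, 15.3 to 18.6) and near 5.11% of eligible bins. The rate was 1.04% without such a match, 3.58% with 1 (274 boundaries) and 8.70% with at least 2 (46 boundaries, 6.58 to 11.4).

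Boundaries with a core match also scored higher, with a median of 0.647 and 63.0% Strong against 0.459 and 44.3% Strong without one. The contrast in the Strong share was larger beyond 100 kb from the nearest TSS than closer to it, without a steady rise in between. At 10 to 15 kb, 62.0% were Strong with a match and 64.4% without. The shares were 72.0% and 55.9% at 20 to 30 kb, 58.1% and 55.9% at 30 to 50 kb, and 58.9% and 33.8% at 100 to 200 kb. Beyond 200 kb the shares were 48.0% of 102 and 20.6% of 160. In genes under 50 kb they were 72.4% and 68.5%, and at 500 to 1000 kb 64.0% and 29.1%. Whether these contrasts differ from one another was not tested.

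Most of the core matches on the autosomes were copies of a single sequence. Of 84922 matches, which fall into 64 distinct sequences, 48355 (56.9%) read CCAGAAGAGGGC, the form printed above for Dlg2, Lrrc7, Spag17, Pde4d, Ttc5 and Xpnpep1, and 99.6% of these copies lie in repeats. The next sequence, CCAAAAGAGGGC, accounts for 2.36%. Over all forms, 71.9% of core matches lie in repeats. B2 elements, a family of short interspersed repeats of rodents, are known to carry a CTCF-like motif, but the family of these repeats was not looked up here. In contrast, CCAGCAGGTGGC, with 1037 matches, lay in repeats in 4.63%.

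Matches in repeats and outside them differed beside the boundaries. Eligible bins with core matches only in repeats were boundaries in 1.19% (540 boundaries, 1.09 to 1.29), those with matches only outside repeats in 1.92% (333, 1.72 to 2.13), those with both in 2.54% (311, 2.28 to 2.83) and those with none in 0.835% (711, 0.776 to 0.898). The Strong share was 58.1% with matches only in repeats, 62.8% with matches only outside them, 71.7% with both and 44.3% with none. A match outside repeats lay within 10 kb of 34.0% of gene-body boundaries and of 18.5% of eligible bins, and a match inside repeats near 44.9% and 36.0%. The median GC content of the bins was 42.8% with matches only in repeats and 43.6% with matches only outside.

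Matches outside repeats mostly pointed outward, into the flanking domains, and matches of the frequent repeat form did not. Of 2332 core matches within 10 kb of a gene-body boundary, 54.7% pointed away from the midpoint (52.6 to 56.7), against 49.0% around eligible bins that are no boundary. Outside repeats the share was 61.6% of 842 matches (58.3 to 64.9, against 49.7%) and in repeats it was 50.7% of 1490 (48.2 to 53.3, against 48.7%). For the frequent sequence alone it was 49.96% of 1197 (47.1 to 52.8, against 48.4%), and for all other sequences 59.6% of 1135 (56.8 to 62.5, against 49.7%). For the longer consensus it was 67.6% of 373 (62.7 to 72.1, against 49.4%). Within 10 kb of the 3' end core matches pointed outward in 50.7% of 712 cases (47.0 to 54.4), and farther inside in 56.4% of 1620 (54.0 to 58.8). These intervals overlapped slightly, and the difference was not tested. Near the 3' end the longer consensus pointed outward in 68.3% of 104 matches and farther inside in 67.3% of 269, with overlapping intervals. On 14 of 19 autosomes more than 50% of the core matches pointed outward, with a range of 46.6 to 67.1%.

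**Figure D4:**
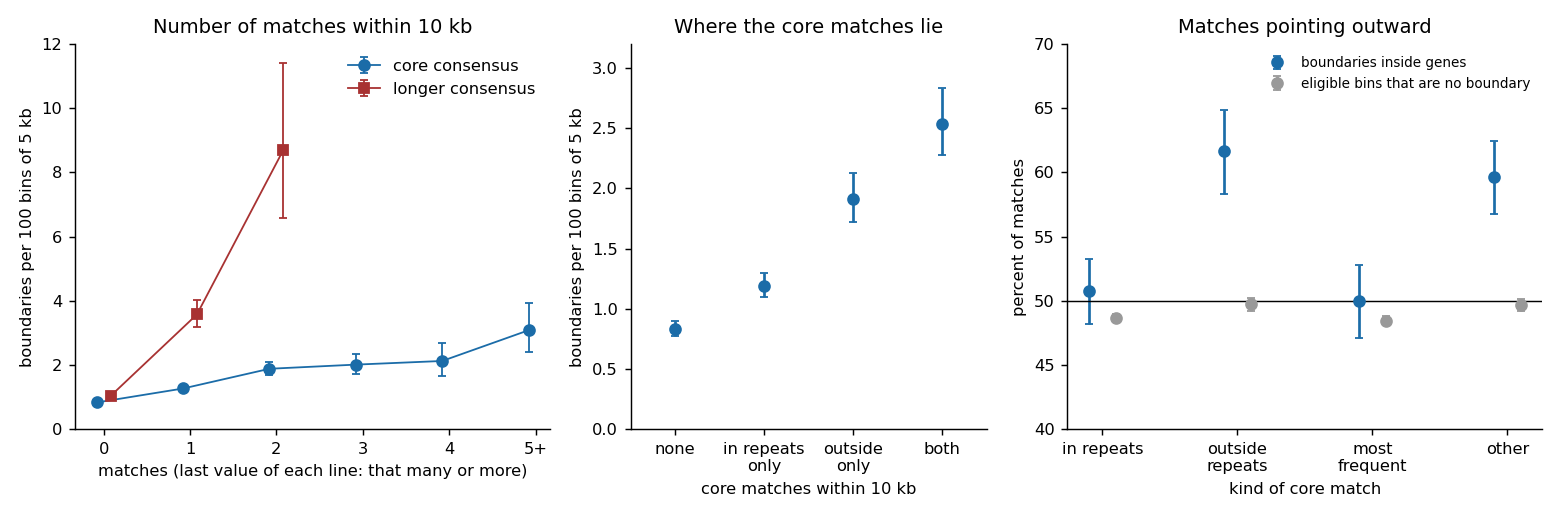
Boundaries per 100 eligible bins of 5 kb by the number of CTCF consensus matches within 10 kb (left panel) and by whether the core matches lie in repeats (middle panel), and the percent of core matches that point outward, by kind of match (right panel, axis from 40 to 70%). Bars are Wilson 95% intervals; blue points of the right panel are gene-body boundaries and grey points eligible bins that are no boundary, and the blue intervals lie above 50% for the matches outside repeats (61.6%) and for all sequences but the most frequent (59.6%).

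By function, many long neuronal genes held a boundary, while their rate per length of sequence was near the common one. Among cell adhesion and synaptic organiser genes, which have a median length of 594 kb, 37 of 56 held a gene-body boundary, beside 15.05% of all eligible genes. Per sequence their rate was 0.995% (75 boundaries, 0.795 to 1.25), beside 1.18% over all. Their median score was 0.413 and their Strong share 34.7%. Of these boundaries 5.33% lay within 10 kb of the 3' end, beside 23.4% of all. The 3' end takes up less of a long gene, and the share of the list's bins that lie there was not counted. The highest scores of the list were those of Dlg2 (3.30), Dlgap1 (2.23), which encodes a partner of the Dlg scaffolds, and Chl1 (1.77). Receptor tyrosine phosphatases, with a median length of 164 kb, held boundaries in 13 of 20 genes at a rate of 0.983%. Their median score was 0.308, and the highest were in Ptprg (1.34), Ptprb (1.17) and Ptprn2 (1.11).

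Other neuronal lists had similar rates, beside 1.18% over all. Of all eligible genes 15.05% held a boundary, but the genes of these lists are longer. Their median lengths ran from 88.3 kb for the channels to 203 kb for the developmental transcription factors, beside 40.9 kb over all. Among all genes, 27.9% of those of 100 to 200 kb and 54.9% of those of 200 to 500 kb held a boundary. Axon guidance genes held boundaries in 16 of 54 genes (0.989%, 0.654 to 1.49), with the highest scores in Robo1, a Slit receptor gene (1.62), Sema3d, a semaphorin gene (1.40), and Epha6, an ephrin receptor gene (1.12). Neurotransmitter receptor genes held 23 in 19 of 66 genes (0.872%, 0.582 to 1.30), led by Grin3a, an NMDA receptor subunit (2.11), Htr4, a serotonin receptor (1.55), and Chrna2, a nicotinic receptor subunit (1.00). Voltage-gated and potassium channel genes held 27 in 20 of 91 genes (0.918%), led by Cacna2d2 (2.75), Kcnj6 (1.72) and Cacna1e (1.60). Cadherin and protocadherin genes held 16 in 11 of 37 (0.798%), led by Cdh13 (1.47), Fat1 (1.26) and Celsr2 (0.723), and developmental transcription factors 30 in 24 of 55 (0.924%), led by Cux2 (2.04), Nfib (1.85) and Myt1l (1.22).

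Solute carrier genes had a rate above the common one, with an interval that includes it. They held 43 boundaries in 41 of 265 genes (15.5%, beside 15.05% of all eligible genes). The rate was 1.48% (1.10 to 1.99), beside 1.18% over all, and 69.8% were Strong, beside 56.0% over all. The median length of these genes was 38.9 kb, beside 40.9 kb over all eligible genes. All genes under 50 kb had a rate of 1.84% and a Strong share of 71.4%, and the part of length in the list's values was not tested. The glutamate transporter genes Slc1a3 (2.59) and Slc1a2 (2.12) led, followed by Slc3a2 (1.74), an amino acid transporter subunit. Collagen, laminin and Adamts genes had 1.25% (23 boundaries), led by Col23a1 (1.69), Col6a5 (1.05) and Col19a1 (1.03), and axonemal dynein and intraflagellar transport genes 1.43% (13), led by Dnah7a (1.52), Dnah8 (1.28) and Ift43 (0.899).

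Among genes of mature OSNs, 9 of 31 (29.0%, beside 15.05% of all eligible genes) held 10 gene-body boundaries. The rate was 1.05% (0.570 to 1.92), beside 1.18% over all, and 3 of the 10 were Strong, beside 56.0% over all. The median length of the OSN genes was 93.2 kb, beside 40.9 kb over all eligible genes. Gnal, the gene of the olfactory G protein alpha subunit, had the highest score, 1.84, in intron 1 of 11, 14.3 kb from its TSS. Pde1c, the phosphodiesterase of OSN cilia, held one of 1.20 in intron 2, and Kirrel3, an adhesion gene of OSN axon sorting, one of 0.886 in intron 2 and one of 0.427. Ano2, the calcium-activated chloride channel gene of cilia, held one of 0.409, Ncam2 one of 0.448, Cadm1 one of 0.499, Ric8b, a chaperone gene of the olfactory G protein, one of 0.428, Slc24a4 one of 0.293 and Map2 one of 0.213.

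Of 25 eligible genes that regulate receptor choice, 4 (16.0%, beside 15.05% of all eligible genes) held a boundary, at a rate of 0.851% (0.331 to 2.17) beside 1.18% over all: Nfib (1.85), Ebf3 (0.681), Ebf2 (0.534) and Lhx2 (0.418), the last in a gene of 30.5 kb. Ebf and Lhx2 proteins bind receptor enhancers in OSNs. The genes of cohesin, CTCF and condensin held 5 boundaries in 4 of 24 genes (16.7%), at a rate of 1.89% (0.809 to 4.34), in Ctcfl (0.691), Pds5b (0.633), Stag1 (0.576 and 0.247) and Nipbl (0.462). Adenylyl cyclase and phosphodiesterase genes held 13 in 9 of 31 (1.05%), with Pde4d (2.39 and 1.11) and Pde1c the highest. Zinc finger genes of the Zfp series, many of them in clusters, held 13 in 13 of 244 (0.792%, 0.464 to 1.35), led by Zfp941 (1.68), Zfp664 (1.24) and Zfp516 (1.23). Of these 13, 46.2% lay within 10 kb of the 3' end, beside 23.4% of all gene-body boundaries. The median length of the Zfp genes was 23.9 kb, beside 40.9 kb over all eligible genes, and the 3' end takes up more of a short gene. The counts of these lists are small, no list was tested against the others, and their different gene lengths go with their shares of genes that hold a boundary.

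**Figure D5:**
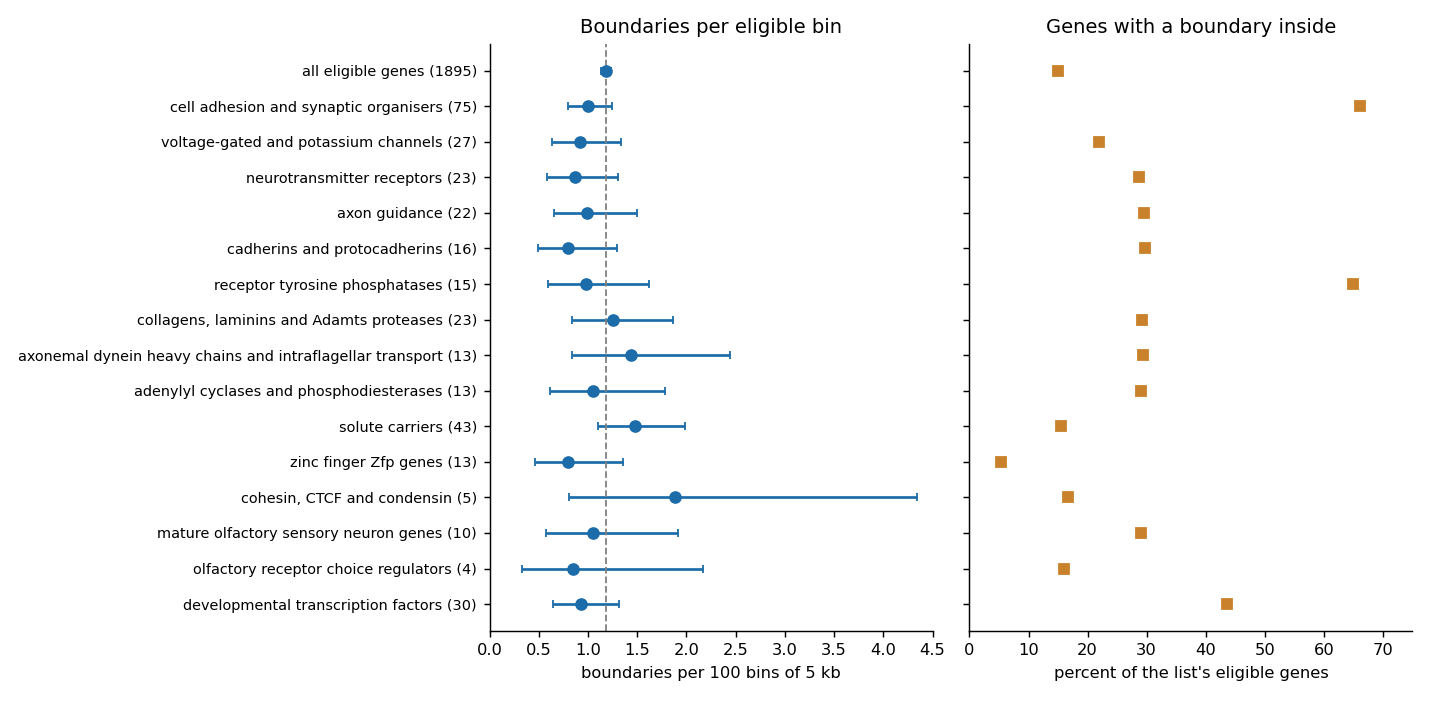
For all eligible genes and 15 gene lists, with the number of gene-body boundaries in brackets: boundaries per 100 eligible bins of 5 kb with Wilson 95% intervals (left panel) and the percent of the list's eligible genes that hold a gene-body boundary (right panel). The dashed line is the rate of all eligible bins, 1.18; the intervals of all 15 lists reach it, while the shares of genes range from 5.33% to 66.1%.

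The nearest other boundary lay a median of 195 kb from a gene-body boundary (quartiles 150 and 260 kb), against 175 kb for promoter boundaries and 215 kb for those outside genes, and none was closer than 60 kb. The list holds no pair of boundaries under 35 kb apart, and any minimum set by the caller is unknown here.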

How the data were processed

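The deposited list gives 1 row per boundary, with its 5 kb bin, class and boundary score. The authors pooled both replicates into 1 contact matrix on GRCm38 before calling boundaries, per the labels' design text; the deposited score has no stated unit and was used as given. Weak scores end at 0.500 and Strong ones begin there. Not given in the sources used here are the aligner, the caller, its window and the contact count. No column was left out (0 columns not used).

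Genes came from GENCODE M21 (20807 autosomal protein-coding genes), with the gene's 5' end as TSS and the longest overlapping gene as host. Coordinates are 1-based. All autosomal 5 kb bins with at most 50% unsequenced bases were classified by their midpoints, by the same rule as the boundaries. Rates are boundaries per 100 such bins with Wilson 95% intervals (Python 3.11.15, scipy 1.17.1, pandas 2.3.3), beside means and SDs over 19 autosomes. CTCF consensus matches were exact searches of the reference (84922 core and 6323 longer matches), called in repeats where more than 50% of the bases are soft-masked. No p-value was computed, because the list is a single map. The counting was tested on simulated lists.

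The boundaries, gene lists and comparisons were chosen with earlier results of these data known. Named genes are the hosts of the 10 highest scores, the 10 genes with most gene-body boundaries and those tied with the last of them, the 5 longest without, the 5 highest scores within 5 kb of the 3' end, the 3 highest of each list and the 3 boundaries on either side of the 10 kb limit; others are marked in the text. Some results under these rules are not reported here. Alternatives changed the TSS distance and definition, the host rule, the distance to assembly gaps, the class of boundary and the motif and its window; RefSeq gene bodies, RefSeq 5' ends, hosts without the overlong models and matches outside repeats were added after seeing the data.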

Additional observations from a re-analysis of the deposited data

How the results depend on the processing

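Of the recomputed values 72 stayed within their error or, for the number of boundaries, within 1.5 times of it, 19 moved beyond it and none turned its direction. Apart from Strong boundaries only, the number ranged from 1454 with a TSS distance of 20 kb to 2175 with 5 kb, and it was 1857 without those near a RefSeq 5' end. The ratio at the 3' end lay between 2.09 and 2.68 under all its alternatives. The share of autosomal boundaries that counted as gene-body boundaries was 30.3% with a TSS distance of 5 kb, 20.3% with 20 kb, 22.8% with the TSSs of every protein-coding transcript, 22.1% with those of genes of every type, 24.7% with the whole bin inside the gene and 25.1% with RefSeq gene bodies. With 20 kb the rate was 1.08%, the Strong share 52.6% and the core share 59.5%. With Strong boundaries only, 1061 were left, at a rate of 0.662%, a core share of 70.3% and a long-to-short rate ratio of 0.381. The share with a match was 16.9% for the longer consensus, 34.0% for core matches outside repeats, 42.4% within 5 kb and 79.7% within 20 kb, and the outward share was 67.6% for the longer consensus and 61.6% outside repeats. The RefSeq bodies and 5' ends, the hosts without Gm20388, Fgfr2 and Gm37240, and the matches outside repeats were chosen after seeing the data. The causes were not tested, beyond what a changed rule fixes by itself.

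Leaving out a replicate was not possible, since the list was called on their pool. No paired analysis was possible because the design has 1 group. The depth of the map is unknown, so a weak boundary below the list's lowest score of 0.20 cannot be told from none.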

Other observations

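Starts of other transcripts lay near some gene-body boundaries. A TSS of a gene of another type (such as a long noncoding RNA) lay within 10 kb of 313 of the 1895, at a rate of 1.27% of such bins against 1.17% of the others. A further start of a protein-coding transcript, other than the gene's 5' end, lay within 10 kb of 265, at 1.37% against 1.16%.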
